A study of Mus musculus domesticus with 6 samples.

Results

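Burst-forming units-erythroid (BFU-E) are the earliest progenitors restricted to the red cell lineage, and the liver of the mid-gestation mouse embryo is a major site of their production. They divide under KIT ligand and other cytokines, with glucocorticoids known to favour their self-renewal, and give rise to colony-forming units-erythroid, which need erythropoietin. Haemoglobin and the red cell membrane proteins accumulate mainly after that stage, under transcription factors such as GATA1, KLF1 and TAL1. The values below describe the transcriptome of a fraction sorted by surface markers for such cells, from embryos that lacked Cre recombinase, without any comparison of genotypes. Genes of other lineages, Mpo among them, were also read in these libraries, and whether the fraction held BFU-E alone was not tested.

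Of the 6 samples in the study, 3 are covered here, replicates 1, 2 and 3 of the genotype Exosc3 fl/fl Cre-, chosen by their titles. All came from fetal liver at stage E14.5, and the strain label reads Exosc3-floxed and Vav1-Cre for every sample, with the genotype label marking these 3 as lacking Cre. Both alleles of Exosc3, a subunit of the RNA exosome that degrades and trims RNA, were flanked by loxP sites. Vav1-Cre is a transgene expressed across blood cells and also in some endothelium. According to the labels, dissociated cells were stained and sorted as GFP+ Lin- Kit+ cells that were low for CD24/71. The design text places 2 of the 6 samples in each of 3 litters, but the replicate numbers are not tied to litters, and whether a library is 1 embryo or a pool is not given. The spread between the 3 libraries may therefore be technical in part.

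Expected counts summed to 96780246, 103891349 and 122278764 in replicates 1, 2 and 3. Levels are given as TPM, a share of all transcripts scaled for transcript length and library total, and a series of 3 values always follows replicates 1, 2 and 3. Of 55359 entries, 9990 (18.0%) reached 1 TPM in all 3 libraries, and of 21876 protein-coding genes 9300 did (42.5%). Those 9300 genes had a median of 23.5 TPM, with 10.1 and 56.7 TPM at the quartiles. Ranks are places in the order of mean TPM among all entries. The labels' GFP+ gate went against the counts of the reporter: eGFP had 91, 0 and 197 expected counts, or 2.70, 0 and 4.69 TPM, and the second reporter entry, GFP, had 0 in all 3. How that gate was applied to embryos without Cre is not given in the sources used here.

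Exosc3 itself was read at 78.1, 68.0 and 77.3 TPM, a narrow range, and 14 of the 15 listed genes of the exosome core and its cofactors reached 1 TPM in all 3 libraries. Exosc9, another core subunit, was the highest of them at 166, 128 and 128 TPM. Next came Dis3, the catalytic ribonuclease (125, 89.7 and 153 TPM), Mphosph6, an exosome-associated protein (128, 149 and 79.4 TPM), and Exosc2 (105, 115 and 115 TPM). Exosc4 was the lowest detected subunit at 11.4, 9.16 and 10.8 TPM. Exosc6 was listed at 0 counts in all 3.

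The 4 genes used to check the identity of the sorted cells were all well above 1 TPM. Kit, the receptor for stem cell factor, stood at 130, 107 and 125 TPM, and Gata1, the central erythroid transcription factor, at 62.0, 91.3 and 61.6 TPM. Car2, the carbonic anhydrase of red cells and their precursors, stood at 185, 184 and 175 TPM, with a coefficient of variation (CV, the SD as a percent of the mean) of 3.01%. Mpo, the myeloperoxidase of neutrophil and monocyte precursors, was higher than Car2 in every library and far less even, at 456, 252 and 756 TPM (mean 488 ± 254, SD, n = 3, rank 264). In bulk RNA, a few cells with much Mpo and many cells with little cannot be told apart. The ratio of Mpo to Car2 was 2.47, 1.37 and 4.32.

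**Figure D1:**
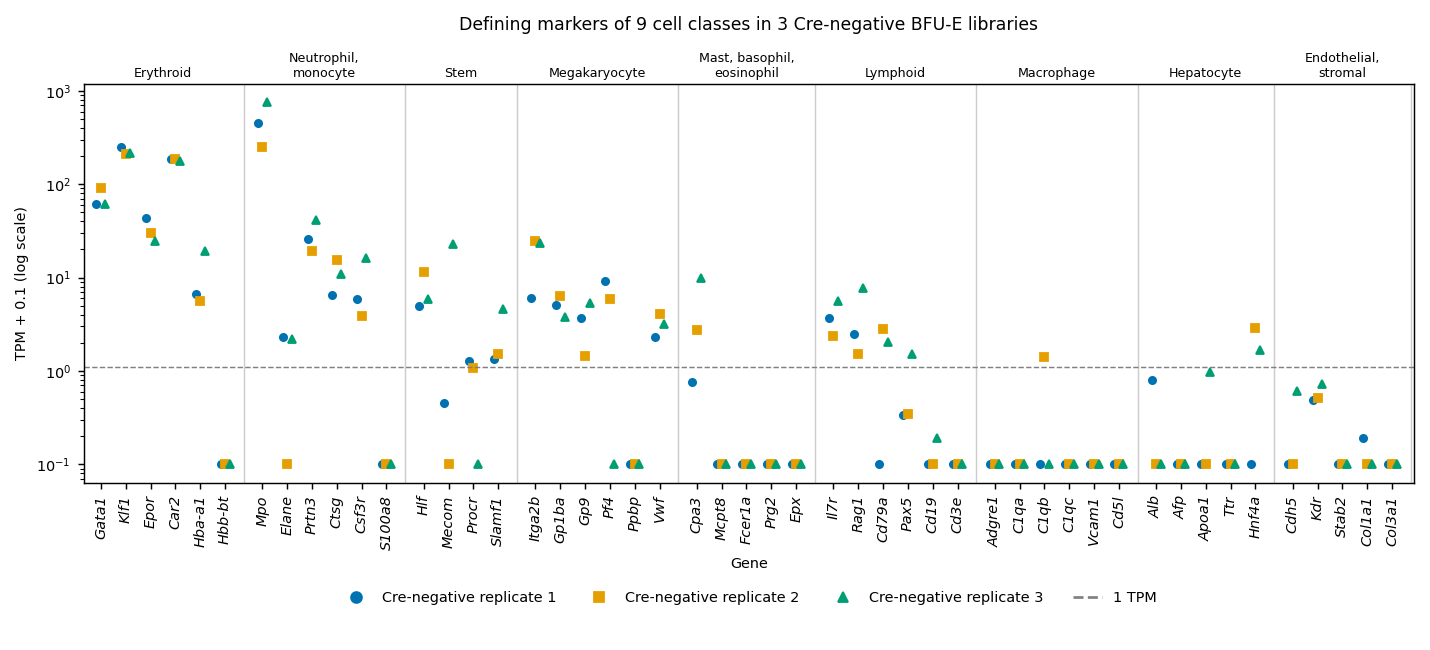
TPM plus 0.1 on a log axis for defining markers of 9 cell classes, 1 point per Cre-negative library; the dashed line marks 1 TPM and points at the bottom are at 0. Gata1, Klf1 and Car2 lie between 61.6 and 252 TPM, Mpo lies between 252 and 756 TPM, and most macrophage, hepatocyte and stromal markers lie at 0.

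The red cell transcription factors were the most completely expressed lineage class. All 21 on the list reached 1 TPM in every library, 20 had a mean of 20 TPM or more, and the list median was 67.3 TPM. Myb, which keeps progenitors proliferating, led at 345, 376 and 436 TPM (mean 386 ± 46.3, SD, n = 3, rank 338). Lmo2 and Ldb1, the bridging partners of the GATA1 and TAL1 complex, followed at 351, 371 and 358 TPM and at 339, 346 and 319 TPM. These 3 genes stood above Gata1 in every library. Ikzf1, a zinc finger regulator of blood lineages, was read at 196, 391 and 270 TPM.

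Klf1, the erythroid activator of globin and membrane genes, was read at 252, 208 and 217 TPM. Its level exceeded that of Gata1 in every library. Gata2, which precedes Gata1 in blood progenitors, lay below it in every library, at 24.1, 27.6 and 46.6 TPM. The ratio of Gata1 to Gata2 was 2.57, 3.31 and 1.32, so that replicate 3 held the narrowest gap. Bcl11a, a repressor of embryonic and fetal-type globins (126, 121 and 114 TPM), was even across libraries, whereas Gfi1b, an erythroid and megakaryocyte repressor, was not (83.2, 59.9 and 38.0 TPM). The text singles out Bcl11a and Gfi1b after their values were seen. Klf13, another Kruppel-like factor, had the lowest mean of the list, with 42.2, 7.24 and 10.5 TPM.

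The products that red cells carry were present at more modest levels. Of 27 listed red cell effectors, 23 reached 1 TPM in all 3 libraries, and the list median was 25.5 TPM. Prdx2, a peroxiredoxin abundant in red cells, led at 439, 445 and 398 TPM, followed by Car2. Ermap, a membrane protein that carries a blood group antigen, was read at 194, 187 and 119 TPM, and Blvrb, the biliverdin reductase B, at 129, 158 and 70.7 TPM. For Ermap and Blvrb, replicate 3 was clearly the lowest library. Epor, the erythropoietin receptor, was read at 43.7, 30 and 24.8 TPM (mean 32.8 ± 9.75, SD, n = 3, rank 3865), and Kit exceeded it in every library. The ratio of Kit to Epor was 2.98, 3.57 and 5.04.

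Genes for the red cell membrane and its skeleton spanned a wide range. Epb41, protein 4.1, was read at 75.9, 102 and 105 TPM, Ank1, ankyrin, at 87.6, 77.9 and 78.6 TPM, and Add2, beta adducin, at 58.5, 57.7 and 33.5 TPM. Epb41, Ank1 and Add2 are named after their values were seen. Epb42, the membrane skeleton protein 4.2, was the lowest effector that reached 1 TPM in all libraries, at 10.4, 3.53 and 1.83 TPM. Slc4a1, the anion exchanger band 3, had 0 counts in all 3. For Slc4a1, 3 counts would be at most 0.0382 TPM. That limit covers read counting only. Genes seen in 1 library alone had a median of 102 counts there (2298 genes), and 102 counts of Slc4a1 would be 1.2997 TPM. A gene given here at 0 was therefore not detected at this depth, which does not show that it is absent.

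Globin RNA was scarce in all 3 libraries. Of 10 globin genes, 3 (30%, beside 42.5% of all protein-coding genes) reached 1 TPM in each library. Another 6, the adult Hbb-bt and the embryonic Hba-x and Hbb-bh1 among them, had 0 counts throughout. The adult alpha globins were read at 22.2, 7.18 and 12.2 TPM (Hba-a2) and at 6.51, 5.56 and 19.3 TPM (Hba-a1), so their ranges overlapped. The adult beta globin Hbb-bs was read at 6.65, 6.86 and 6.58 TPM, and the embryonic Hbb-y at 3.09, 0 and 0 TPM. For Hbb-bs the expected counts were 174, 196 and 75, so its even TPM depended on a length that differed between libraries, as described below. The 2 alpha genes are near-identical copies, as are Hbb-bs and Hbb-bt, so the split within each pair is uncertain.

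The heme pathway was detected apart from its erythroid entry enzyme. Of 13 listed genes, 12 reached 1 TPM in all 3 libraries, with a list median of 51.1 TPM. Cpox, coproporphyrinogen oxidase, led at 256, 256 and 188 TPM. Alad, which makes porphobilinogen, was read at 183, 170 and 135 TPM, Urod, uroporphyrinogen decarboxylase, at 159, 191 and 83.0 TPM, and Tmem14c, a mitochondrial porphyrin transporter, at 90.6, 86.0 and 70.3 TPM. All 4 were lowest in replicate 3. Uros, uroporphyrinogen III synthase, was the lowest detected member at 9.16, 13.3 and 5.90 TPM. Alas2, the erythroid form of the first enzyme, had 0 counts in every library, where 102 counts would be 1.29 TPM. Alas1, its ubiquitous counterpart, was read at 33.5, 39.9 and 79.9 TPM and is named because of that contrast, after its values were seen.

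Iron storage genes were among the most abundant of the lineage lists. Fth1 and Ftl1, the heavy and light ferritin chains, were read at 640, 973 and 765 TPM and at 426, 507 and 378 TPM. Of 17 iron genes, 15 reached 1 TPM in all libraries, with a list median of 35.0 TPM. Tfrc, the transferrin receptor CD71, was read at 65.0, 86.9 and 55.6 TPM. Slc40a1, the iron exporter ferroportin, was the lowest detected member at 10.3, 9.15 and 20.3 TPM.

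Genes of stem and multipotent progenitor cells were mostly detected but low. Of 31 on the list, 22 reached 1 TPM in all 3 libraries, and the median was 10.6 TPM. Bmi1, a Polycomb protein that sustains self-renewal, led at 105, 112 and 84.4 TPM. Msi2, an RNA-binding protein of stem cells, was read at 47.5, 31.0 and 100.04 TPM, and Hmga2, an architectural chromatin protein of fetal progenitors, at 45.7, 38.6 and 70.4 TPM. Both were highest in replicate 3. Slamf1, the stem cell antigen CD150, was the lowest detected member at 1.24, 1.41 and 4.49 TPM, and Ly6a, which encodes Sca-1, had 0 counts in all 3.

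The fetal RNA-binding proteins of the IGF2BP family were all present. Igf2bp1 and Igf2bp3 overlapped, at 69.9, 27.9 and 47.5 TPM and at 43.4, 34.4 and 43.2 TPM. Igf2bp2 lay below Igf2bp3 in every library, at 18.1, 12.1 and 27.7 TPM. Among the HOXA genes, which pattern the early blood hierarchy, Hoxa7 was the highest at 12.6, 9.10 and 13.9 TPM and Hoxa9 lay below all of its values at 3.44, 6.61 and 2.91 TPM. Hoxa5 (1.39, 0 and 3.39 TPM) and Hoxa10 (0, 0 and 1.19 TPM) each missed at least 1 library. Mecom, a stem cell regulator among the fixed markers, was read at 0.35, 0 and 22.6 TPM.

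Regulators tied in the literature to BFU-E self-renewal were detected for 11 of 13 genes, with a median of 32.8 TPM. After Myb, the highest was Zfp36l2, an RNA-binding protein that destabilises messenger RNA, at 89.0, 106 and 125 TPM. Mllt3, a chromatin reader, was read at 56.4, 84.3 and 54.4 TPM. Nr3c1, the glucocorticoid receptor, was read at 34.9, 42.9 and 28.0 TPM, and Ppara, the fatty acid receptor PPAR-alpha, had 0 counts in all 3, where 102 counts would be 0.987 TPM. Zfp36, a relative of Zfp36l2, was the lowest detected member at 2.22, 1.54 and 3.84 TPM.

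Of 23 neutrophil and monocyte genes, 13 (56.5%, beside 42.5% of all protein-coding genes) reached 1 TPM in all 3 libraries. Another 6 had 0 counts in all. The list median was 4.92 TPM. It was 2.97 TPM without replicate 3 and, over the 13 detected members alone, 11.8 TPM. Mpo alone made up most of the list's summed TPM. The macrophage growth factor receptor Csf1r was read at 19.1, 21.2 and 64.6 TPM, the transcription factor Spi1 (PU.1) at 30.3, 16.0 and 54.7 TPM, and the granule protease Prtn3 at 25.7, 19.3 and 40.95 TPM. Each of these was highest in replicate 3. Itgam, the integrin CD11b, was the lowest detected member at 3.26, 2.05 and 6.09 TPM. Genes of later neutrophil stages and mature monocytes, S100a8, S100a9 and Ly6c2, had 0 counts in every library. The ratio of Gata1 to Spi1 was 2.05, 5.70 and 1.13.

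Other cell types left little RNA. Of 12 macrophage genes none reached 1 TPM in all 3 libraries, 8 had 0 counts throughout, and the list summed to 0.09, 1.97 and 4.82 TPM. Adgre1, C1qa and C1qc, defining macrophage markers, were among those at 0. Of 16 hepatocyte genes, 2 (12.5%, beside 42.5% of all protein-coding genes) were detected in all libraries (Krt18 and Trf) and 11 were at 0. Trf, transferrin, averaged 8.80 TPM, and 4.005 TPM when recomputed with 1 effective length per gene, the mean of the 3 libraries. Alb was read at 0.71, 0 and 0 TPM, while Afp and Ttr had 0 counts in all 3. The hepatocyte list summed to 11.8, 28.8 and 14.2 TPM.

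Megakaryocyte genes were detected for 6 of 16 (37.5%), near the 42.5% of all protein-coding genes, and the list summed to 40.7, 90.7 and 73.0 TPM. Itga2b, the integrin CD41 that early progenitors also carry, led at 5.88, 24.5 and 23.2 TPM, and Ppbp, a platelet chemokine, had 0 counts in all 3. Of 13 mast cell, basophil and eosinophil genes, 2 (15.4%) reached 1 TPM in all libraries (Il1rl1 and Mitf) and 8 were at 0. Of 20 lymphoid genes, 5 (25%) did so, led by Ighm, the immunoglobulin mu heavy chain, at 24.5, 16.5 and 49.1 TPM. The lymphoid list summed to 65.3, 39.6 and 116 TPM, while Dntt, Vpreb1 and Igll1 had 0 counts throughout. Of 16 endothelial and stromal genes 4 (25%) were detected in all libraries, and 7 were at 0. Dlk1, a surface protein of fetal liver cells, led that list at 11.4, 16.9 and 54.3 TPM, ahead of Pecam1, the adhesion molecule CD31, at 7.25, 13.5 and 30.5 TPM.

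**Figure D2:**
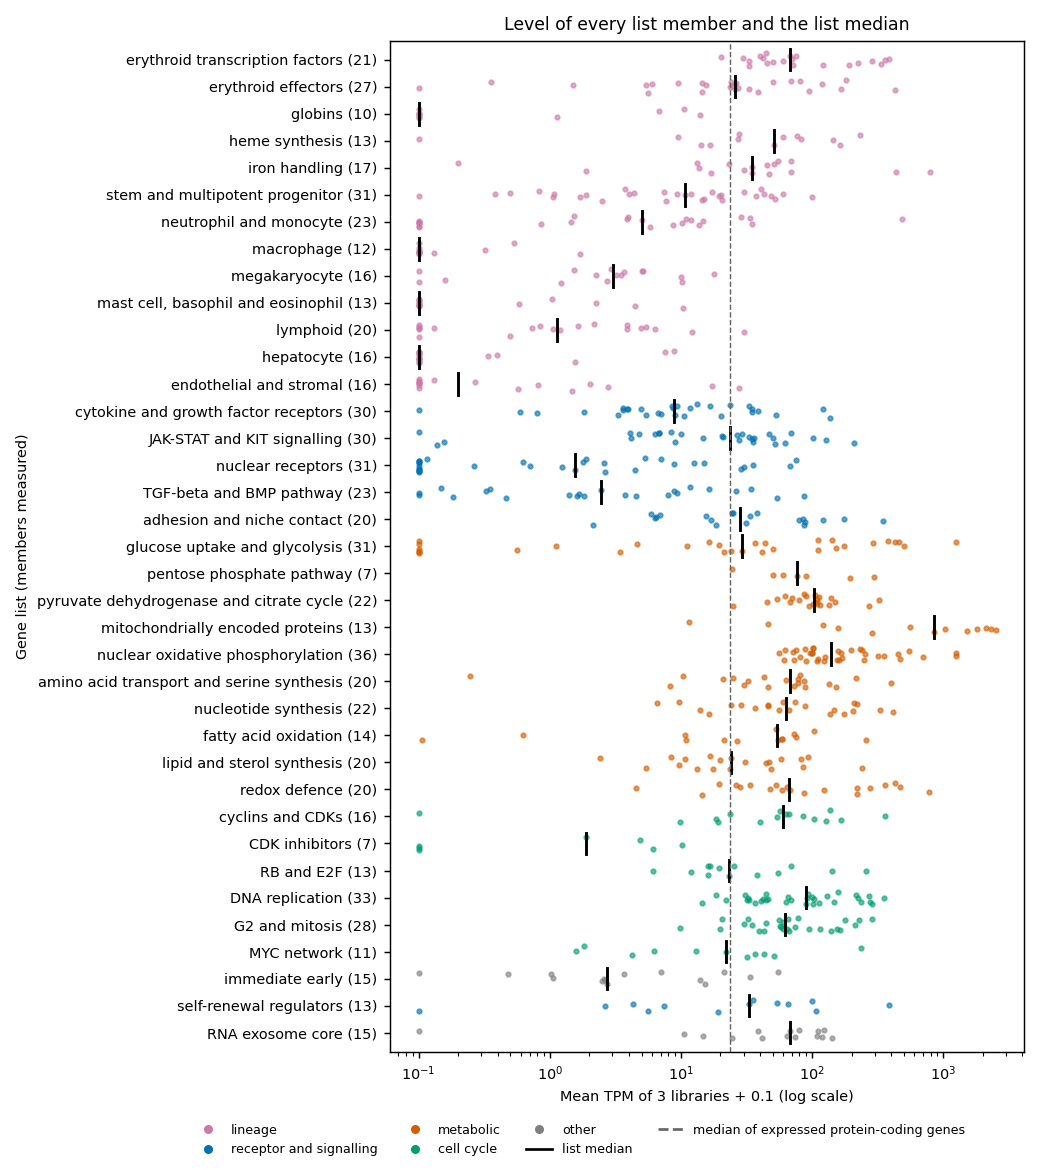
Mean TPM of the 3 libraries plus 0.1, on a log axis, for every measured member of the 37 gene lists; vertical bars are list medians, members at 0 sit at the left edge and the dashed line is the 23.5 TPM median of expressed protein-coding genes. Medians run from 0 TPM for macrophage, globin, hepatocyte and mast cell genes to 848 TPM for proteins encoded by mitochondrial DNA.

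Cytokine receptors were nearly all present, at low levels. Of 30 listed receptors, 26 reached 1 TPM in all 3 libraries, with a median of 8.72 TPM, under that of expressed genes at large. Ifngr1, the ligand-binding chain of the interferon-gamma receptor, and Kit were the only ones with a mean over 100 TPM. Ifngr1 was read at 134, 144 and 133 TPM, above Kit within each library. With 1 effective length per gene, Ifngr1 and Kit were level in replicate 3, at 133.7 and 133.6 TPM. Ifnar2, of the type I interferon receptor, was read at 53.0, 29.1 and 76.4 TPM and Il11ra1, of the interleukin-11 receptor, at 31.6, 30.3 and 53.7 TPM. Csf2rb2, a beta chain for interleukin-3, was the lowest detected receptor at 1.27, 2.13 and 1.76 TPM, and its near-identical copy Csf2rb makes that split uncertain. Fas, the death receptor, had 0 counts in all 3.

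A receptor of other lineages stood beside Epor. Flt3, of multipotent and lymphoid progenitors, was read at 12.3, 14.97 and 32.6 TPM. It was highest in replicate 3, where it exceeded Epor. In the other libraries Epor was the higher of the pair. Flt3 is named after its values were seen.

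Downstream of the receptors, 27 of 30 JAK-STAT and KIT signalling genes reached 1 TPM in all libraries, with a median of 23.6 TPM. Ptpn6, the phosphatase SHP-1 that dampens EPOR and KIT signals, led at 174, 166 and 281 TPM. Grb2, an adaptor toward RAS, was read at 87.6, 111 and 181 TPM, and Akt1, a kinase of the PI3K branch, at 83.0, 43.8 and 78.2 TPM. Stat4 was the lowest detected member at 4.16, 2.21 and 5.64 TPM. Among the Janus kinases, Jak1 (126, 73.8 and 106 TPM) lay above Jak2, the EPOR-bound kinase (29.3, 27.6 and 30.7 TPM), in every library. Jak2 in turn lay above Jak3 (4.97, 8.12 and 13.8 TPM), which overlapped with Tyk2 (8.71, 4.25 and 7.03 TPM).

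The signal transducers Stat5a and Stat5b had overlapping ranges, at 38.3, 52.1 and 60.0 TPM and at 28.4, 39.95 and 29.8 TPM, although Stat5a was higher within each library. Feedback inhibitors that STAT5 is known to induce ranged from 0 to a few TPM. Socs2 reached 1 TPM in every library, at 3.15, 3.36 and 5.56 TPM. Socs3 had 0 counts, Cish was read at 0.11, 0 and 0 TPM, and Socs1 at 0, 0 and 0.17 TPM. Socs2, Cish and Socs1 are named after their values were seen.

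Of 31 nuclear receptors, 13 (41.9%) reached 1 TPM in all libraries, near the 42.5% of all protein-coding genes, and 10 were at 0. The list median was 1.46 TPM. Thra, the thyroid hormone receptor alpha, led at 78.7, 72.3 and 75.8 TPM (CV 4.22%). Nr1h2, the oxysterol receptor LXR-beta, was read at 44.1, 59.9 and 101 TPM and Nr2c2, the orphan receptor TR4, at 30.3, 20.1 and 39.4 TPM. Nr3c1 ranked between them by mean. Nr4a2, an orphan receptor, was the lowest detected member at 1.44, 2.37 and 3.63 TPM. Besides Ppara, the mineralocorticoid receptor Nr3c2 and Rxrg had 0 counts in all 3.

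In the TGF-beta and BMP pathway, 11 of 23 genes (47.8%) reached 1 TPM in all libraries, near the 42.5% of all protein-coding genes. The list median was 2.36 TPM. The ligand Tgfb1 was the highest at 86.6, 68.2 and 107 TPM. The co-receptor Tgfbr3 was read at 37.1, 71.9 and 51.5 TPM, and the transducer Smad2 at 38.5, 29.5 and 34.3 TPM. Bmp4 and its receptor Bmpr1b had 0 counts, and Smad1, a BMP transducer, was the lowest detected member at 2.21, 2.51 and 6.24 TPM.

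Adhesion genes were broadly detected, with 18 of 20 at 1 TPM or more in all libraries and a median of 27.9 TPM. Itga4, the alpha chain of VLA-4 that binds macrophage VCAM1, led at 320, 355 and 371 TPM. Spn, the sialoglycoprotein CD43, was even at 173, 177 and 180 TPM, with a CV of 1.92%. Cd81, a tetraspanin, was read at 153, 95.6 and 114 TPM. Cd24a, one of the antigens of the sort, was read at 101, 93.1 and 68.1 TPM, and Cd53, another tetraspanin, was the lowest detected member at 5.13, 2.94 and 9.47 TPM.

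**Figure D3:**
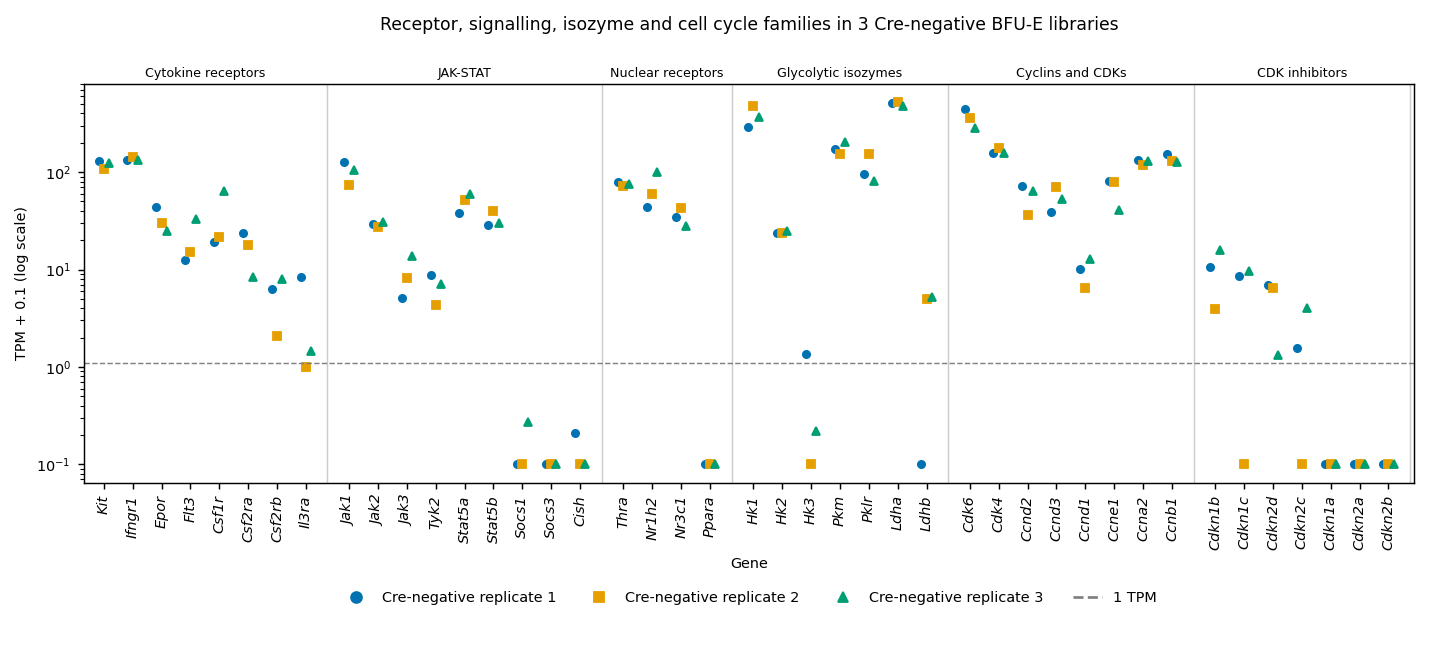
TPM plus 0.1 on a log axis for receptors, signalling genes, glycolytic isozymes and cell cycle families, 1 point per Cre-negative library; the dashed line marks 1 TPM and points at the bottom are at 0. In every library Jak1 lies above Jak2 and Hk1 above Hk2, and Cdkn1a, Cdkn2a and Cdkn2b are at 0.

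Among genes of glucose uptake and glycolysis, 1 form of an enzyme often stood far above its alternatives. Of 31 glycolysis genes, 22 reached 1 TPM in all libraries and 6, among them the insulin-responsive transporter Slc2a4 and the aldolase Aldoc, had 0 counts in all. The list median was 29.2 TPM, and 80.7 TPM over the 22 detected members alone. Gapdh, the glyceraldehyde dehydrogenase, was read at 1235, 1272 and 1278 TPM (CV 1.84%, rank 124). Ldha, the lactate dehydrogenase A chain, was read at 511, 523 and 482 TPM, Eno1, enolase, at 485, 485 and 414 TPM, and Aldoa, aldolase A, at 467, 432 and 395 TPM. Pdk2, an inhibitor of pyruvate dehydrogenase, was the lowest detected member at 3.27, 3.63 and 6.69 TPM.

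Within the hexokinases, Hk1 lay far above Hk2 in every library, at 293, 482 and 366 TPM against 23.4, 23.6 and 24.9 TPM. Hk3 was read at 1.26, 0 and 0.12 TPM. Both pyruvate kinases were present, Pkm at 171, 153 and 203 TPM and Pklr, the red cell and liver form, at 96.0, 155 and 81.6 TPM. Their ratio was 1.78, 0.989 and 2.49, so that they were level in replicate 2. Ldhb, the partner of Ldha, was read at 0, 4.93 and 5.14 TPM. Pkm, Pklr and Ldhb are named after their values were seen.

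The pentose phosphate pathway, which supplies NADPH and ribose, was complete, with 7 of 7 genes detected and a median of 76.4 TPM. Its transketolase Tkt (302, 289 and 303 TPM) and transaldolase Taldo1 (191, 194 and 194 TPM) were the steadiest members. Rpe, a pentose epimerase, was the lowest at 29.5, 22.5 and 21.3 TPM.

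The citrate cycle was complete as well. All 22 genes for it and for pyruvate dehydrogenase reached 20 TPM in mean, with a median of 104 TPM. Mdh2, malate dehydrogenase, led at 313, 365 and 288 TPM, followed by Sdha, of succinate dehydrogenase, at 266, 305 and 237 TPM. Sdhc, another subunit of that enzyme, was the lowest at 21.1, 29.3 and 24.6 TPM.

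Respiratory chain genes reached higher still. The 13 proteins of mitochondrial DNA had a median of 848 TPM and 1.33 ± 0.130% of all TPM (SD, n = 3). The cytochrome oxidase subunit mt-Co1 led at 2827, 2118 and 2572 TPM. Of the 13, 10 were highest in replicate 1, beside 29.7% of the 9300 expressed genes, and 10 lowest in replicate 2, beside 36.4%. The short gene mt-Nd3 was the most uneven at 216, 623 and 15.6 TPM, and mt-Nd4l the lowest at 11.2, 9.97 and 13.3 TPM. For mt-Nd4l these values rest on only 41.2, 40.1 and 61.5 expected counts, at effective lengths of 42.95, 42.86 and 43.44 bases. All 36 nuclear-encoded genes of oxidative phosphorylation were detected, with a median of 140 TPM. Cox6c, of cytochrome oxidase, was read at 1150, 1528 and 1106 TPM and Atp5b, the ATP synthase beta chain, at 1333, 1059 and 1349 TPM. Ndufa1, of complex I, was the lowest at 76.3, 71.6 and 19.6 TPM.

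Biosynthetic pathways for growth were almost fully detected. For amino acid transport and serine synthesis, 19 of 20 genes reached 1 TPM in all libraries, with a median of 68.1 TPM. Phgdh, the first enzyme of serine synthesis, led at 447, 310 and 448 TPM, and Shmt2, which passes serine carbon to folate, was read at 252, 186 and 208 TPM. Psph, the last enzyme of serine synthesis, was the lowest detected member at 13.4, 2.88 and 8.12 TPM. Nucleotide synthesis had 22 of 22 genes detected and a median of 63.2 TPM. It was led by Impdh2, of guanine nucleotide synthesis, at 422, 444 and 373 TPM, and by Gart, of purine synthesis, at 266, 303 and 424 TPM.

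Fat handling was uneven across its enzymes. Of 14 fatty acid oxidation genes, 12 were detected in all libraries, with a median of 53.5 TPM. Etfb, an electron carrier, led at 262, 280 and 236 TPM. The carnitine carrier Slc25a20 was the lowest detected member at 13.7, 3.85 and 14.3 TPM. Lipid and sterol synthesis had 19 of 20 genes detected and a median of 23.8 TPM, with Scd2, a fatty acid desaturase, well above the rest at 232, 259 and 234 TPM. Lss, lanosterol synthase, was the lowest detected member at 5.78, 7.03 and 3.00 TPM.

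Antioxidant genes were all detected (20 of 20, median 66.3 TPM). Sod1, the cytosolic superoxide dismutase, led at 808, 803 and 733 TPM, with Gpx1, a glutathione peroxidase, next at 432, 491 and 490 TPM. Gclm, of glutathione synthesis, was read at 395, 386 and 290 TPM. Nqo1, a quinone reductase, was the lowest at 7.35, 4 and 1.91 TPM.

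Genes of DNA replication and mitosis were detected without exception on these lists. Among 33 DNA replication genes, 33 reached 1 TPM in all libraries, with a median of 90.2 TPM, and among 28 genes of G2 and mitosis, 28 did, with a median of 62.0 TPM. Lig1, the replicative DNA ligase, led the former at 302, 379 and 383 TPM. The helicase subunits Mcm3 and Mcm7 were read at 294, 289 and 271 TPM and at 252, 342 and 234 TPM. Gins3, of the same helicase complex, was the lowest at 16.6, 10.3 and 15.9 TPM. Mki67, the proliferation antigen Ki-67, was read at 264, 281 and 308 TPM, and Top2a, topoisomerase II alpha, at 224, 214 and 244 TPM. Cdc25c, a mitotic phosphatase, was the lowest of the mitotic genes at 11.4, 10.1 and 7.75 TPM.

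Of 16 cyclins and cyclin-dependent kinases, 15 were detected in all libraries, with a median of 60.3 TPM. Cdk6, the G1 kinase of blood progenitors, led at 443, 359 and 285 TPM, above its relative Cdk4 in every library (159, 179 and 156 TPM). The mitotic cyclins Ccnb1 and Ccna2 followed at 155, 129 and 128 TPM and at 134, 117 and 131 TPM. Of the D-type cyclins, Ccnd2 (71.5, 36.6 and 63.3 TPM) and Ccnd3 (38.5, 70.7 and 52.8 TPM) overlapped, and both lay above Ccnd1 (10.0, 6.34 and 12.8 TPM) in every library. Ccna1, the germ cell cyclin A, had 0 counts in all 3.

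Inhibitors of the cell cycle were low or not detected. Of 7 inhibitors of cyclin-dependent kinases, 2 (28.6%) were detected in all libraries, beside 42.5% of all protein-coding genes. Cdkn1b, p27, was read at 10.6, 3.83 and 15.8 TPM and Cdkn2d, p19, at 6.78, 6.42 and 1.22 TPM. Cdkn1c, p57, was read at 8.46, 0 and 9.67 TPM and Cdkn2c, p18, at 1.45, 0 and 3.90 TPM. Cdkn1a, which encodes p21, and Cdkn2a and Cdkn2b, of the senescence locus, had 0 counts in all 3. For Cdkn1a, 102 counts would be 1.10 TPM. The retinoblastoma and E2F list had 13 of 13 detected and a median of 23.3 TPM. E2f4, a mostly repressive E2F factor needed for fetal erythropoiesis, led it at 274, 260 and 234 TPM, while Rb1 was the lowest at 6.51, 5.89 and 5.68 TPM.

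Myc, the growth-promoting transcription factor, was even across libraries, at 231, 236 and 239 TPM (CV 1.68%, rank 562). Mycn, its fetal and neural relative, lay below it in every library at 9.90, 5.96 and 22.6 TPM. In the MYC network, 9 of 11 genes were detected, with a median of 22.1 TPM, and the partner Max was read at 44.3, 66.4 and 43.5 TPM. Genes of the immediate early response to handling or stimulation were detected for 9 of 15 (60%, beside 42.5% of all protein-coding genes). Their median was 2.65 TPM. Hspa1b and Hspa1a, near-identical heat shock genes whose split is uncertain, led them at 44.8, 42.03 and 76.4 TPM and at 21.3, 24.4 and 54.8 TPM. Atf3, a stress factor, had 0 counts in all 3, and Egr1 was read at 2.78, 1.53 and 2.83 TPM.

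Within families, neighbouring genes in the order of mean TPM were counted as separated where all 3 libraries of one lay above all 3 of the other. Over 30 neighbouring pairs, 10 were separated, 13 overlapped and 7 were both at 0. Without replicate 2 the separated pairs numbered 17. No test was made of these orders, since genes of 1 library share that library.

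Ribosomal protein and histone genes led the protein-coding genes. The 83 cytoplasmic ribosomal protein genes took 17.1 ± 0.627% of all TPM (SD, n = 3) and 67 replication-dependent histone genes 7.34 ± 0.522%. Among protein-coding genes the highest mean belonged to Hist2h2aa1, a histone H2A gene, at 12312, 8696 and 9091 TPM, which was rank 5 among all entries. The 2 mitochondrial ribosomal RNA entries took 6.18%, 4.83% and 5.49% of all TPM. Of the 15 highest, 6 encode ribosomal proteins (Rplp1, Rpl13a, Rpl37, Rpl26, Rpl29 and Rpl22), and 5 encode histones. The other histones were Hist2h2bb, Hist1h2af, Hist1h2ap and Hist1h2ai. Also among the 15 were the chaperones Hsp90aa1 (7973, 7467 and 7050 TPM) and Hsp90ab1 (5966, 5685 and 5821 TPM) and the elongation factor Eef1a1 (5098, 5421 and 5581 TPM). Levels of single histone and ribosomal protein genes are uncertain, since these have near-identical copies.

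Agreement among the libraries depended on level. The median CV of the 9300 expressed protein-coding genes was 25.3%. Genes with a mean of 1 to 5 TPM had a median CV of 65.8%, and 23.6% of these were at 0 in at least 1 library. For genes with a mean of 100 TPM or more the median CV was 11.8%. Across the 9300 genes, log2 TPM correlated at Pearson r = 0.918 (replicates 1 and 2), 0.917 (1 and 3) and 0.905 (2 and 3). Genes are not independent replicates.

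Part of the spread moved with the effective length, which counts the positions in a transcript where a fragment can start and is shorter than the transcript. For a gene it is a mean over isoforms, weighted by what the quantification assigned to each in that library. Of the 9990 expressed entries, 2911 (29.1%) had effective lengths that differed more than 1.5-fold between libraries. With 1 length per gene the median CV was 19.2% and the correlations were 0.952, 0.949 and 0.942. Mcm2, a helicase subunit, showed the size of the shift. Its deposited values were 231, 427 and 153 TPM at effective lengths of 1637, 892 and 2810 bases, and with 1 length they were 215, 217 and 243 TPM. In the same way Smad3 moved from 8.92, 59.9 and 9.84 TPM to 12.6, 12.99 and 13.8 TPM, and Ikzf1 from 196, 391 and 270 TPM to 263, 258 and 280 TPM. Klf13 moved to 13.2, 10.3 and 13.6 TPM, Cdk6 to 342, 346 and 371 TPM, Csf1r to 31.6, 17.5 and 36.1 TPM and Alas1 to 41.5, 44.9 and 54.1 TPM. Grb2 moved to 112, 122 and 120 TPM, and Nr1h2 to 57.0, 66.1 and 65.0 TPM. For Mecom the values became 0.483, 0 and 6.20 TPM, and for Itga2b 9.31, 9.15 and 25.02 TPM. Hbb-bs became less even, at 8.60, 8.89 and 2.97 TPM, from effective lengths of 304.6, 304.8 and 106.6 bases. Hba-a1 moved to 7.92, 6.78 and 11.7 TPM.

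**Figure D4:**
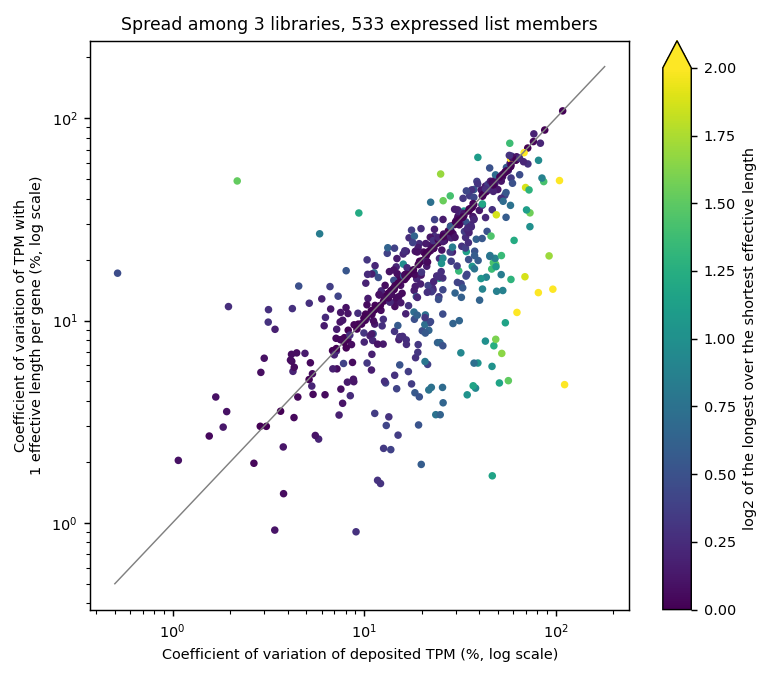
CV among the 3 libraries of 533 expressed list members, from deposited TPM (x axis) and from TPM with 1 effective length per gene (y axis), both in percent on log axes; colour is the log2 ratio of the longest to the shortest effective length. Points with large length ratios, among them Smad3 and Mcm2, lie mostly below the diagonal, that is, with a smaller CV once 1 length is used.

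Of 5070 protein-coding genes with a mean of 20 TPM or more, the 10 with the highest CV were Snurf, Tpmt, 2210418O10Rik, Uchl1, Asdurf, B230307C23Rik, Ccdc191, Isoc2b, Rnf31 and Adck5. In 8 of them the effective length differed more than 2-fold, and ranked by CV with 1 length per gene over the same 5070 genes, a choice added after the data were seen, 5 of the 10 stayed among the 10 most uneven (Snurf, Isoc2b, Asdurf, 2210418O10Rik and Tpmt). Where the minimum of 20 TPM was applied to the mean with 1 length instead, Snurf and Asdurf stayed. Snurf, an upstream reading frame gene of the imprinted Snrpn locus, was read at 0, 231 and 0 TPM, at an effective length of 9.05, 8.97 and 9.26 bases. Rnf31, a ubiquitin ligase of the linear chain complex, was read at 10.8, 161 and 9.83 TPM and, with 1 length, at 14.6, 12.1 and 15.8 TPM. The means of B230307C23Rik, Ccdc191 and Adck5 were 151, 58.9 and 63.7 TPM as deposited and 31.5, 13.7 and 21.3 TPM with 1 length. The 5 most even by deposited TPM were Emc6, a membrane protein insertase subunit (CV 0.333%), Rpl24, a ribosomal protein, Mrps7, of the mitochondrial ribosome, Abcb4, a phospholipid transporter, and Sf3b3, a splicing factor subunit (CV 0.607%). With 1 length their CVs were 1.04%, 0.353%, 7.14%, 2.22% and 1.91%, in the same order.

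The library that held the highest or lowest value was not the same for all lineages. Of 23 detected red cell effectors, 17 were lowest in replicate 3, and of 12 detected heme genes 10 were. Over the 9300 expressed protein-coding genes that share was 30.4%. Some lists outside the lineages also had many members lowest there. These were 18 of 36 nuclear oxidative phosphorylation, 12 of 22 glycolysis, 10 of 20 antioxidant and 17 of 33 DNA replication genes. Iron genes, a lineage list, had 5 of 15 lowest in replicate 3, and citrate cycle genes 7 of 22. Of 22 detected stem and progenitor genes, 16 were highest in replicate 3, as were 10 of 13 neutrophil and monocyte genes, 17 of 26 receptors, 17 of 27 signalling genes and 13 of 18 adhesion genes, beside 37.6% of expressed genes. Lists of other kinds leaned the same way: 7 of 9 detected immediate early genes, 5 of 5 lymphoid genes and 4 of 4 endothelial and stromal genes were highest in replicate 3. The summed level of the immediate early list was 125, 129 and 229 TPM, and that of the endothelial and stromal list 23.5, 36.8 and 95.7 TPM. Replicate 2 held the lowest value for 10 of the 13 neutrophil and monocyte genes, beside 36.4%. With 1 length per gene, 18 of 23 effectors and 10 of 12 heme genes were lowest in replicate 3 (29.6% of expressed genes). For oxidative phosphorylation, glycolysis, antioxidant and DNA replication genes these counts were 17 of 36, 13 of 22, 11 of 20 and 10 of 33. Iron and citrate cycle genes had 4 of 15 and 6 of 22. The counts for the highest values in replicate 3 were 18 of 22, 10 of 13, 19 of 26, 16 of 27 and 14 of 18 (40.2%). For the immediate early, lymphoid and endothelial and stromal lists they were 8 of 9, 4 of 5 and 4 of 4.

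Among red cell transcription factors 8 of 21 were lowest and 5 of 21 highest in replicate 3. Over the expressed genes the highest value lay in replicate 1, 2 or 3 for 29.7%, 32.6% and 37.6%, and the lowest for 33.2%, 36.4% and 30.4%. With 1 length per gene these shares were 28.8%, 31.1% and 40.2% for the highest and 33.7%, 36.8% and 29.6% for the lowest. Cd34, a progenitor antigen, was lowest in replicate 2 and highest in replicate 3, at 42.2, 18.2 and 68.8 TPM. Members of a list share their libraries, so these counts describe 3 libraries and carry no test. The lists overlap in some members, such as Csf1r, Csf3r, Flt3 and Il7r. These counts and Cd34 were chosen after the values were seen. The part of the immediate early response and of RNA from other cell types in the order was not tested.

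**Figure D5:**
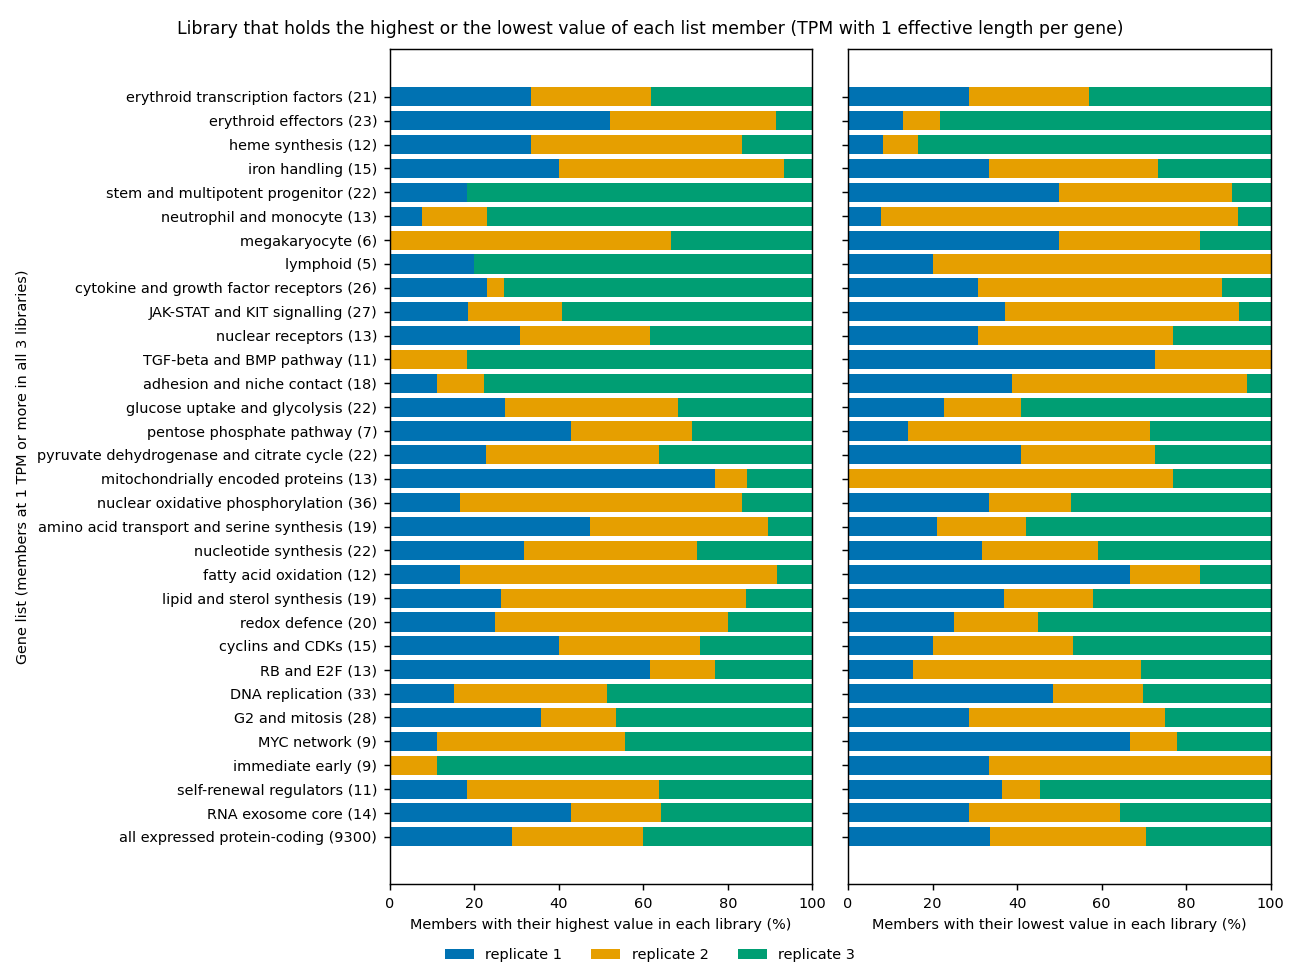
Share of each list's members, among those at 1 TPM or more in all 3 libraries, with the highest (left) and lowest (right) value in replicate 1, 2 or 3, from TPM with 1 effective length per gene, for lists with at least 5 such members; the bottom row is all 9300 expressed protein-coding genes. Replicate 3 holds the highest value of 18 of 22 stem and progenitor genes and the lowest of 18 of 23 red cell effectors.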

How the data were processed

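Total RNA was extracted with the RNeasy Micro kit and made into libraries with the SMARTer Stranded Total RNA-Seq Pico kit, per the labels' protocols. Per the submitters' processing notes, the authors used STAR 2.5.3a, RSEM 1.3.0 and build GRCm39 (mm39). Neither the annotation release nor the strand setting is given in the sources used here. The deposited tables hold 1 expected count (the number of reads the model assigns), 1 TPM value and 1 effective length per gene and library, per the file headers. Expected counts were not whole for 2.66% of values and were not rounded, since no count test was run. TPM recomputed from counts and lengths matched the deposited TPM within 0.490%. Pairs of identical libraries numbered 0.

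Only the 3 Cre-negative libraries were used, without a test, because they form 1 group. Means, SDs, CVs and ranks were computed from deposited TPM in Python 3.11.15 with numpy 2.4.6 and pandas 2.3.3, and figures with matplotlib 3.10.9. A gene was called detected at 1 TPM or more in all 3 libraries. Gene symbols matched 52081 of 55359 entries. The 37 lists hold 708 genes, of which 707 matched an entry (Ahsp did not), 533 were detected and 82 had 0 counts in all libraries. The members and lists were chosen with earlier results of these data known. Named were Exosc3, the 4 identity genes, and from each list the 4 highest members, the lowest detected one and up to 3 at 0 counts, with whole families of alternatives, the 15 highest protein-coding genes and the 10 most and 5 least variable. A few genes that this rule names are not reported here, members that repeat the same pattern were left out of the text, and any other gene is marked as picked once its values had been seen. Alternatives covered the threshold, a minimum of 10 counts, 1 effective length per gene, TPM over nuclear protein-coding genes, the median of libraries, detected members only, leaving out each library, and, for the CV, CPM with TMM factors (edgeR 4.0.16 in R 4.3.3). The calculations were checked on simulated data with 1 effective length per gene, so the effect of lengths that differ between libraries was not checked.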

Additional observations from a re-analysis of the deposited data

How the results depend on the processing

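The number of detected entries, 9990, lay between 9154 (threshold of 2 TPM) and 10621 (without replicate 2) over all alternatives. With TPM rescaled over nuclear protein-coding genes the list medians were 30.7 TPM for red cell effectors, 10.5 for receptors, 35.1 for glycolysis and 108 for DNA replication. Such a rescaling raises every value by its construction. Over detected members only, the medians were 11.8 TPM (neutrophil and monocyte) and 80.7 TPM (glycolysis), since members at 0 are left out. With the median of libraries in place of the mean, glycolysis was at 32.2 TPM and DNA replication at 68.2 TPM, and with 1 effective length per gene glycolysis was at 26.4 TPM. Leaving out each library in turn gave 7.08 to 9.77 TPM for receptors, 24.7 to 35.2 TPM for glycolysis, 70.7 to 91.0 TPM for DNA replication and 13 to 17 separated family pairs, against 10 with all 3. Fewer libraries make separation easier by construction. The median CV was 19.2% with 1 length per gene and with CPM, and 19.3% to 21.4% without 1 library. With 1 length, 7 of 737 named or listed genes moved in mean TPM by more than their SD. That SD, of deposited TPM, itself holds the length differences, so the rule passes over large shifts. Smad3, with an SD of 29.1 TPM, went from a mean of 26.2 to 13.1 TPM and was not among the 7. A change of over 1.5-fold was seen in 7 detected genes, which are Klf13, Trf, Smad3, B230307C23Rik, Ccdc191, Rnf31 and Adck5, each to a lower level. The cause of the length differences was not tested. No paired analysis was possible because only 1 group was analysed. Of genes with a mean of 1 to 5 TPM, 23.6% were at 0 in at least 1 library, so low levels are the least certain.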

Other observations

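A few abundant genes outside the lists are given here, chosen after their values were seen. Npm1, the nucleolar protein nucleophosmin, was read at 4761, 5098 and 4429 TPM, and Ncl, nucleolin, at 4513, 4163 and 3973 TPM. Ptma, prothymosin alpha, was read at 3701, 4135 and 4208 TPM. Atpif1, the mitochondrial ATPase inhibitor known for its need in heme synthesis, was read at 3671, 4485 and 3500 TPM. All 4 exceeded Fth1, the highest of the iron genes, in every library.

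Noncoding RNAs were also measured, as the libraries were made from total RNA. Rpph1, the RNA of ribonuclease P, was read at 5990, 6657 and 6939 TPM. Its effective lengths were only 55.4, 55.4 and 56.0 bases. TPM divides by that length, so 28528, 34570 and 41526 counts gave these high values. Malat1, a nuclear long noncoding RNA, was read at 540, 409 and 507 TPM, Gas5, a host of small nucleolar RNAs, at 387, 321 and 351 TPM, and Snhg1, another such host, at 155, 162 and 235 TPM. The RNA of ribonuclease MRP, Rmrp, has 2 entries, with 1998, 1525 and 2286 TPM in one and 208, 1591 and 479 TPM in the other. The split between those entries is uncertain. Their effective lengths were short as well, at 34.6, 34.5 and 35.1 bases and at 29.8, 29.7 and 30.2 bases.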
